A study of Mus musculus with 4 samples.

Results

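The genes that bring glucose into a cell and set its first steps of metabolism were examined in mouse pancreatic islet cells given MOTS-c, a mitochondrial-encoded peptide, or a scrambled control peptide. They were the glucose transporters Slc2a2 and Slc2a1, the hexokinases Hk1 and Hk2, the glucose-6-phosphatase catalytic subunits G6pc2 and G6pc3, and the bifunctional enzymes Pfkfb2 and Pfkfb3. All 8 genes had at least 1 probe on the array, and together they had 14 of its 56605 gene probes, of which 32994 could be named and cover 22911 genes. Membership was set by gene symbol, with no cutoff on a measured value, but the genes were chosen with earlier results of these data known. Slc2a2, G6pc2 and Pfkfb2 are the forms typical of beta cells, and Slc2a1, Hk1, Hk2, G6pc3 and Pfkfb3 were grouped here as ubiquitous forms. The label "low-affinity" describes the transporter Slc2a2.

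The scrambled group (replicates 1 and 2) and the MOTS-c group (replicates 2 and 3) had 2 arrays each, and each peptide was given ex vivo at 10 μM for 24 h. By the labels, the cells of both groups came from male C57BL/6 mice aged 60 weeks, 4 littermates in all, and no genetic change or other agent was named. Islets were picked by hand and dispersed into single cells before the peptide was added, so each array holds RNA of a cell mixture, in which fewer cells of a type and less RNA per cell cannot be told apart. The labels do not say which animal each array came from, so p-values measure only the spread between these arrays, and the number of arrays limits the precision.

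In beta cells, glucose enters through a transporter of the SLC2A (GLUT) family, is phosphorylated to glucose 6-phosphate and passes into glycolysis, and the ATP this yields closes potassium channels and triggers insulin release. Rodent beta cells are known for a transporter that does not saturate at physiological glucose and for little of the high-affinity hexokinases. G6pc2 runs the phosphorylation step backwards, and the PFKFB enzymes make and break down fructose 2,6-bisphosphate, the strongest activator of phosphofructokinase.

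Of gene spots, 61.6% to 65.0% were well above background on each of the 4 arrays, and the arrays lay on 1 slide, with 0 saturated gene spots. Before the results, 1 mismatch with the labels has to be given. Against the label male, 0 of the 28 readings of 7 probes for genes of the Y chromosome (Uty, Kdm5d, Eif2s3y, Ddx3y) exceeded background well, and Xist, transcribed from an inactive X chromosome, did so on all 4 arrays (23.7 to 33.5 times local background). Both groups showed this, and its part in the results was not tested. Of 20 markers of beta, alpha and delta cells, 16 were well above background on all 4 arrays, among them Ins1, Ins2, Iapp, Mafa and Nkx6-1, while Ucn3, a marker of mature beta cells, was so on none. Of 32 markers of acinar, ductal, mesenchymal, endothelial and macrophage cells, 14 were well above background on all 4 arrays and 16 on none, Krt19, Sox9, Col1a1, Cdh5 and Ptprc among the latter.

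The sequences upstream of the transporter pair and of the phosphatase pair are shown first, because the 2 genes of each pair differ in CpG content there. Each run holds the 250 bases before the transcription start in RefSeq, read 5′ to 3′ on the gene's strand, build GRCm38.p6, and capitals mark ACGTG on either strand (written CACGT where it lies on the opposite strand), the core that hypoxia-inducible factors and many basic helix-loop-helix factors bind. For G6pc2 the first of 2 listed starts is shown.
Slc2a2, chr3:28697653-28697902, plus strand: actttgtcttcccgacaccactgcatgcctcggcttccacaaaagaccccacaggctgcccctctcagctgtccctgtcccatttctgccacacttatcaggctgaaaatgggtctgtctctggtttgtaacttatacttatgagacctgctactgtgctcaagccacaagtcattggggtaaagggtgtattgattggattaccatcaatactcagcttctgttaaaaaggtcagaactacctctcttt
Slc2a1, chr4:119108495-119108744, plus strand: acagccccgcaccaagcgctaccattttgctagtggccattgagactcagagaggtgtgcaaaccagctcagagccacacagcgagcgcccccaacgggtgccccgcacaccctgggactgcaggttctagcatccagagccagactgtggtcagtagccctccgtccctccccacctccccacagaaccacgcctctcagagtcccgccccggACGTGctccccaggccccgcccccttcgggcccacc
G6pc2, chr2:69210823-69211072, plus strand: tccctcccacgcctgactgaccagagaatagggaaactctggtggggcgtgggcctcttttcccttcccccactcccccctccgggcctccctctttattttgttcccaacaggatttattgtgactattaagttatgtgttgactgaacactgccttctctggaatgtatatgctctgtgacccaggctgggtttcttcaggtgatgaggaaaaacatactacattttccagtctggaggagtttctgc
G6pc3, chr11:102189449-102189698, plus strand: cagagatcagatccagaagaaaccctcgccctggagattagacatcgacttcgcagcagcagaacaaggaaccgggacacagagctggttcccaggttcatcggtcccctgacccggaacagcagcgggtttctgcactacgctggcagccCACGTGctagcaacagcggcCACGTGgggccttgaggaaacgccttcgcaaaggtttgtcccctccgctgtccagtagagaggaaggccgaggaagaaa

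The upstream stretches of Slc2a2 and G6pc2 hold 2 and 3 CpG dinucleotides, and those of Slc2a1 and G6pc3 hold 13 and 15, against a median of 6 over 32851 such stretches. The classes were not divided in this way throughout. The stretches of Hk1 hold 1 and 14, that of Hk2 25, and those of Pfkfb3 24 and 14. Those of Pfkfb2 hold 7, 11 and 1, and the second of G6pc2 holds 5. ACGTG was absent from the Slc2a2 stretch and from the first G6pc2 stretch. Slc2a1 had 1 match, Hk2 had 2, the first Pfkfb3 stretch had 1, and G6pc3 had the palindrome CACGTG at 2 places, each of which counts as ACGTG on both strands. Both Hk1 stretches had none. Over all starts, 6 of the 8 genes and 8 of their 13 stretches held ACGTG, with 2 of 3 beta cell forms and 4 of 5 ubiquitous forms among these genes, and 16.6% of all 32851 stretches held it. CACGTG was also in the second stretch of Pfkfb2 and the second of Pfkfb3, and in 6.02% of all stretches. The box sequence TATAAA was in 0 of the 13, against 12.4% of stretches on either strand. These are matches of letters and no measure of binding.

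Slc2a2, which encodes GLUT2, the transporter of rodent beta cells and liver, had the most negative log2 change of the 8 genes in the processing used here. Its only probe, A_52_P409988, read 5.23 and 5.26 log2 units under the scrambled peptide and 3.81 and 4.02 under MOTS-c. Both MOTS-c arrays lay far below both scrambled arrays, and the gap between the groups was several times the gap within either. The log2 change was −1.33 (SE 0.14, 95% confidence interval −1.69 to −0.98), at an unadjusted p of 0.000277 and an adjusted p of 0.474 by limma. The change therefore did not pass the test over all 35087 probes, among which 15 probes, itself included, had a p at least as small and 73 a change at least as negative.

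The Slc2a2 probe was also dim. Its processed intensities were 37.8 and 36.3 under the scrambled peptide and 13.8 and 17.7 under MOTS-c. The spot stood at 1.85 and 2.30 times its local background under the scrambled peptide and at 1.31 and 1.33 times under MOTS-c, and it was well above background on both scrambled arrays and on 1 of the 2 MOTS-c arrays, replicate 3. The scrambled arrays alone would have passed it through the filter. By signal it was among the 8772 dimmest probes tested, of which 7.73% had an unadjusted p under 0.05 with at least a 1.5-fold change, against 0.627% of the 8772 brightest. With another background correction (normexp) the change was −0.39, at an unadjusted p of 0.00671 and an adjusted p of 0.353 by limma. That correction adds 50 to every signal, more than any of the probe's processed intensities, which in itself draws the change of a dim probe toward 0. Its value is therefore not comparable with those of bright probes. Under a strict filter (well above background on 4 of 4 arrays) the gene was not tested. Of the 10 beta cell markers, Slc2a2 and Ucn3 were thus the ones not well above background on all 4 arrays. How the dimness of the probe bears on its change was not tested.

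**Figure D1:**
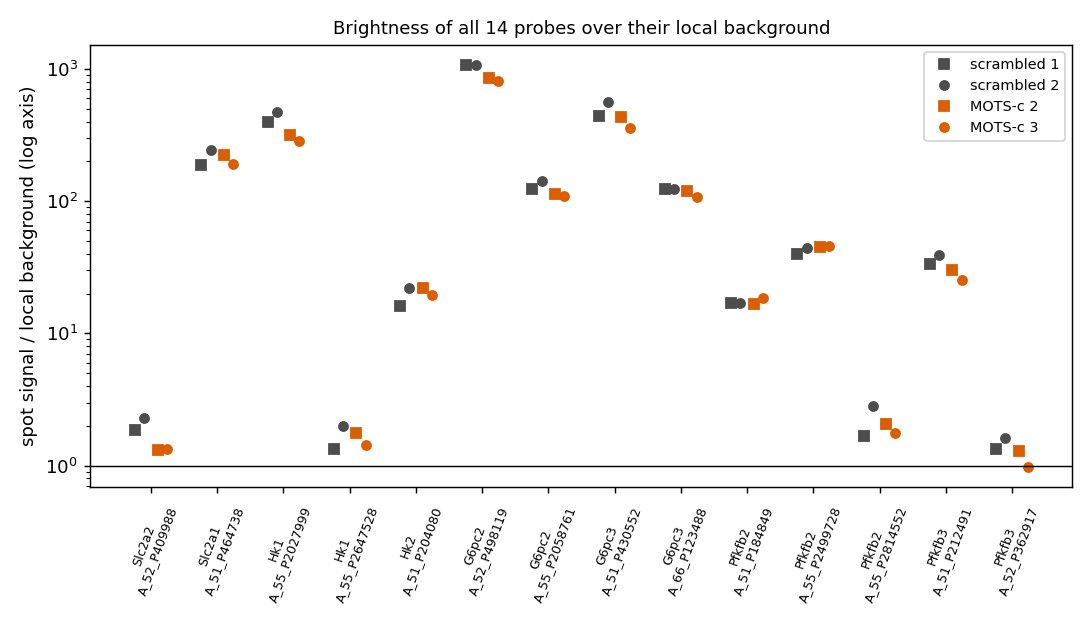
Median spot signal over local background (log axis) of all 14 probes on the 4 arrays, with scrambled arrays in grey and MOTS-c arrays in orange and squares and circles for the lower and the higher replicate number. The Slc2a2 probe lies at 1.31 to 2.30 times its background on the 4 arrays, and the main probe of G6pc2 at 815 to 1075 times.

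Slc2a1 encodes GLUT1, the transporter that most cell types use for basal uptake. Its probe read 12.94 and 12.86 under the scrambled peptide and 12.94 and 12.74 under MOTS-c. The 4 values lay together and the groups overlapped. The log2 change was −0.057 (SE 0.14, 95% confidence interval −0.42 to 0.30, adjusted p 0.947).

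Hk1, the hexokinase of brain and most other tissues, binds mitochondria and is inhibited by its own product. Its brighter probe, A_55_P2027999, read 14.04 and 13.86 under the scrambled peptide and 13.70 and 13.56 under MOTS-c. Both MOTS-c arrays were below both scrambled arrays, with a log2 change of −0.32 (SE 0.14, 95% confidence interval −0.69 to 0.047, adjusted p 0.684). The second Hk1 probe, A_55_P2647528, read 3.34 and 4.48 under the scrambled peptide and 4.64 and 3.59 under MOTS-c. It was well above background on 1 array of each group, its arrays overlapped, and its log2 change of 0.20 (SE 0.52) had the opposite sign.

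Hk2, the hexokinase of muscle and fat that insulin and hypoxia are known to induce, ran the other way from the bright Hk1 probe. Its probe read 9.17 and 9.38 under the scrambled peptide and 9.71 and 9.52 under MOTS-c. The MOTS-c arrays both exceeded the scrambled ones. The log2 change was 0.34 (SE 0.15, 95% confidence interval −0.058 to 0.73, adjusted p 0.688), the highest among the 13 probes tested for these genes.

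G6pc2 is the glucose-6-phosphatase catalytic subunit of islets and is known to set fasting glucose. Its brighter probe, A_52_P498119, read 15.40 and 15.20 under the scrambled peptide and 15.11 on each MOTS-c array. The MOTS-c arrays were just below the lower scrambled array, and the log2 change was −0.19 (SE 0.13, 95% confidence interval −0.54 to 0.16, adjusted p 0.786). It was −0.092 without scrambled replicate 1. The second probe, A_55_P2058761, read 12.27 and 12.30 against 12.17 and 12.24, again without overlap and with a log2 change of −0.075 (adjusted p 0.919). Both probes thus had the same sign.

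G6pc3, the subunit found in all tissues, is best known from neutrophils. Its brighter probe read 14.05 and 14.12 under the scrambled peptide and 14.07 and 13.89 under MOTS-c, and its second probe read 12.05 and 12.03 against 12.10 and 11.96. Neither probe separated the groups. The log2 changes were −0.10 (95% confidence interval −0.46 to 0.25, adjusted p 0.889) and −0.0067 (−0.34 to 0.32, adjusted p 0.996).

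Pfkfb2 encodes the form of heart and islets, whose kinase activity is raised by phosphorylation. The brightest of its 3 probes, A_55_P2499728, read 10.51 and 10.45 under the scrambled peptide and 10.71 and 10.81 under MOTS-c. Both MOTS-c arrays were higher, with a log2 change of 0.28 (SE 0.12, 95% confidence interval −0.045 to 0.61, adjusted p 0.687). A_51_P184849 read 9.19 on each scrambled array and 9.20 and 9.29 under MOTS-c, with a log2 change of 0.056 (adjusted p 0.941), and its groups did not overlap either. The dim A_55_P2814552 read 5.29 and 6.12 against 5.73 and 5.26 and overlapped, with a log2 change of −0.21 (SE 0.34). The 3 probes are annotated to different RefSeq transcripts of the gene, so they need not measure the same RNA.

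Pfkfb3, the form of dividing and hypoxic cells, has the highest ratio of kinase to phosphatase activity in its family. Its probe A_51_P212491 read 10.42 and 10.49 under the scrambled peptide and 10.26 and 10.15 under MOTS-c. The groups did not overlap, MOTS-c being lower, and the log2 change was −0.25 (SE 0.12, 95% confidence interval −0.58 to 0.076, adjusted p 0.708). The second Pfkfb3 probe, A_52_P362917, was well above background on 0 of the 4 arrays and was not tested.

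**Figure D2:**
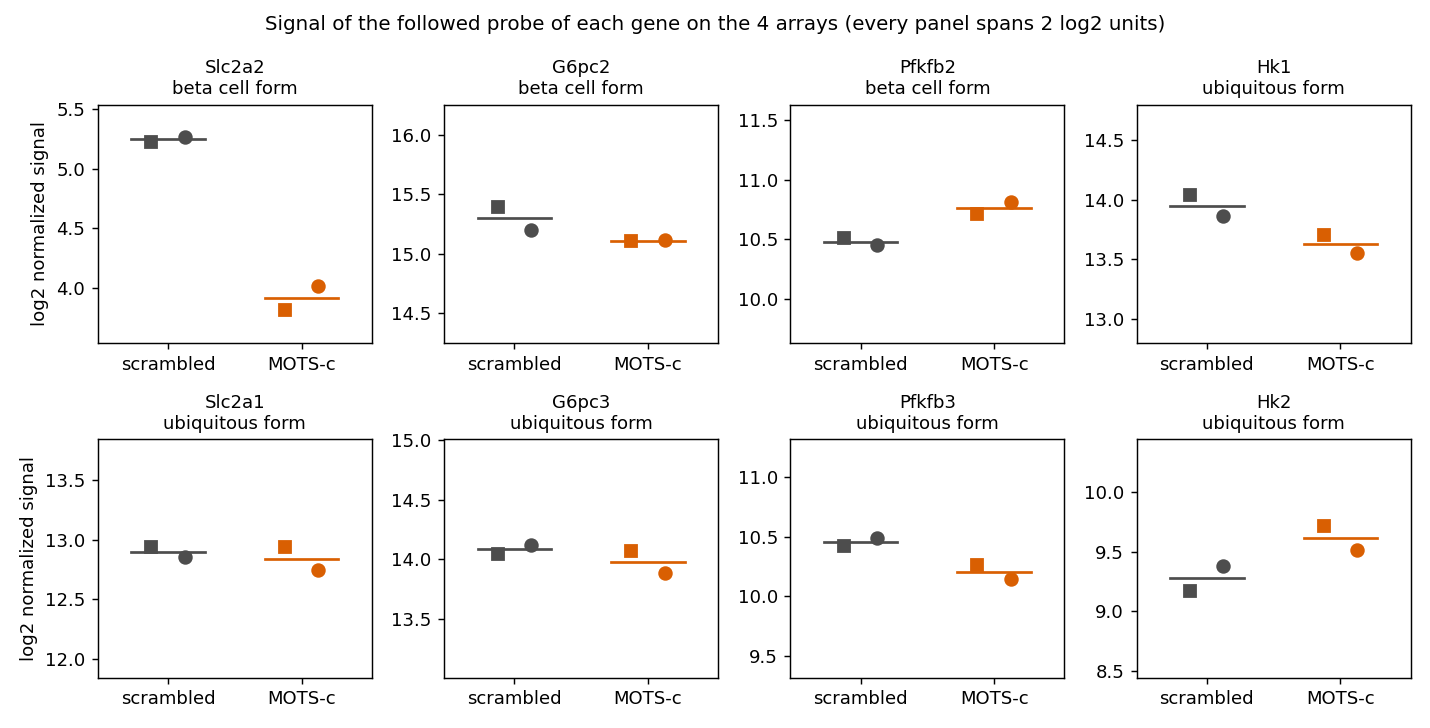
Log2 normalized signal of the brightest probe of each gene, with 1 point per array, horizontal lines at the group means and 2 log2 units on every vertical axis. The group means of Slc2a2 are 5.25 and 3.91, and the group means of the other 7 genes differ by at most 0.34.

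Counted over probes, 11 of the 14 were well above background on all 4 arrays and 13 were tested. limma called 0 of the 13 at an adjusted p under 0.05, as it called 0% of the 35087 probes tested, and the methods' t-test, adjusted likewise, called 0 of the 13 and 1 of all probes (0.00285%). At an unadjusted p under 0.05 limma had 1 of the 13 (Slc2a2), against 7.85% of all probes, and the t-test had 2 (Slc2a2 and Pfkfb2), against 6.59% of all probes by that test. Slc2a2 was likewise the 1 probe that also reached 1.5-fold, against 3.53% of all probes. The groups did not overlap for 8 of the 13 probes, against 38.0% of all probes, with 5 lower in MOTS-c (18.6% of all probes) and 3 higher (19.4% of all probes).

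By the brightest probe, 6 of the 8 genes had a negative log2 change and 2 a positive one, with a median of −0.15. Over all probes tested, 47.1% had a negative change and the median was 0.014. The 3 beta cell forms ran from −1.33 to 0.28 with a median of −0.19, and the 5 ubiquitous forms from −0.32 to 0.34 with a median of −0.10. Genes of both directions were thus found in both classes, Hk2 being the only positive one of the class called ubiquitous. For comparison, arrays of the same group differed by a median of 0.16 log2 units per probe in the scrambled group and 0.19 in the MOTS-c group.

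**Figure D3:**
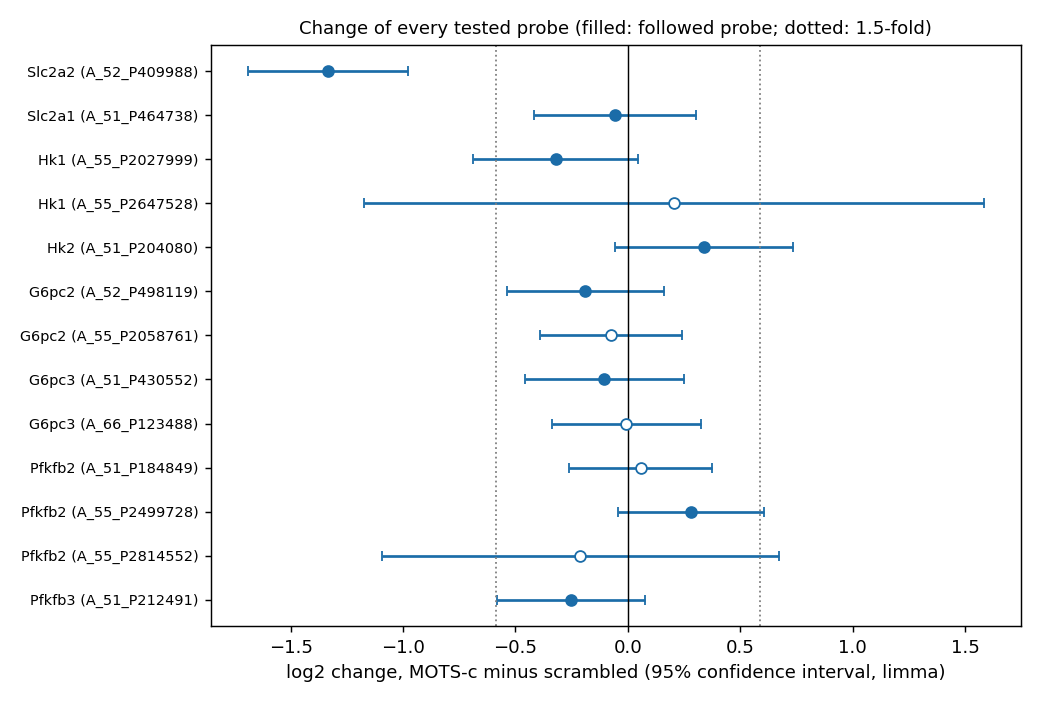
Log2 change of the 13 tested probes, MOTS-c minus scrambled, with 95% confidence intervals from limma. Filled points are the brightest probe of a gene, open points its other probes, and dotted lines mark 1.5-fold. The interval of Slc2a2 alone lies off 0, before adjustment for the number of probes, and the dim probes of Hk1 and Pfkfb2 have the widest intervals.

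The question whether a beta cell form and its ubiquitous counterpart responded unequally was put to the transporters, the phosphatase subunits and the bifunctional enzymes. Hk1 was set against Hk2 as well, which made 4 pairs. For each pair the difference of the log2 signals of both genes was taken on each array. Levels of different probes are not comparable, and only the shift of this difference between treatments is read. With 2 arrays against 2, the two-sided exact permutation test cannot give a p below 0.333, so no pair could pass a threshold of 0.05.

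For the transporters, Slc2a2 minus Slc2a1 was −7.71 and −7.60 under the scrambled peptide and −9.13 and −8.73 under MOTS-c. The groups did not overlap, and the shift was −1.28 (exact p 0.333, adjusted over the 4 pairs 0.444). The dim Slc2a2 probe carried nearly all of it. With the normexp correction, whose offset draws the change of a dim probe toward 0, the shift was −0.34.

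For the phosphatase subunits, G6pc2 minus G6pc3 was 1.35 and 1.08 under the scrambled peptide and 1.04 and 1.22 under MOTS-c. The groups overlapped, and the shift of −0.084 was smaller than the SD within the scrambled group, 0.19 (exact p 0.667, adjusted 0.667). It turned positive without scrambled replicate 1 (0.051) and without MOTS-c replicate 2 (0.0088).

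For the bifunctional enzymes, Pfkfb2 minus Pfkfb3 was 0.088 and −0.039 under the scrambled peptide and 0.45 and 0.66 under MOTS-c. Both MOTS-c arrays were higher, and the shift was 0.53 (exact p 0.333, adjusted 0.444). Averaging every probe of each gene gave 0.29.

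For the hexokinases, both of them ubiquitous forms, Hk1 minus Hk2 was 4.87 and 4.47 under the scrambled peptide and 3.99 and 4.04 under MOTS-c. MOTS-c was lower without overlap, and the shift was −0.66 (exact p 0.333, adjusted 0.444). Using the mean over probes, which takes in the dim Hk1 probe, gave −0.40.

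**Figure D4:**
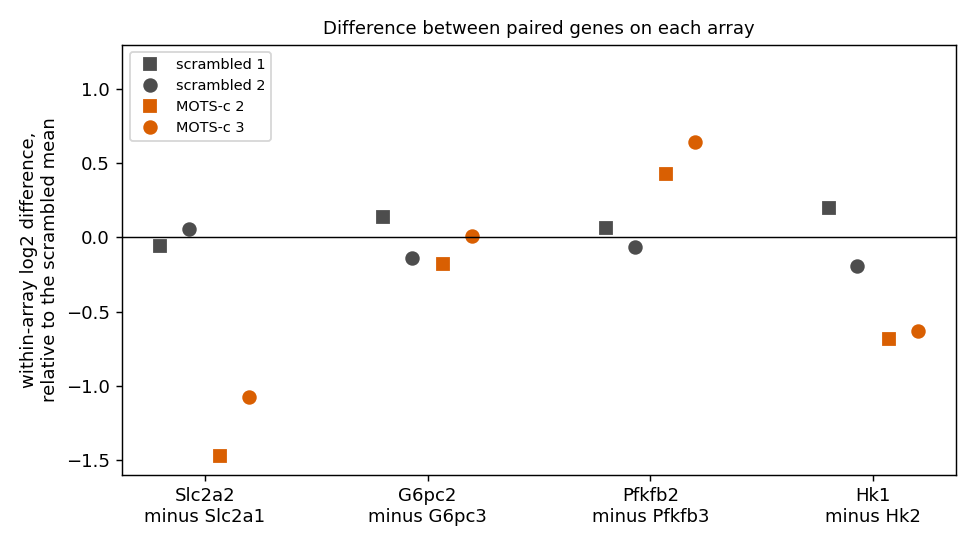
Within-array log2 difference between the genes of each pair, drawn relative to the mean of the scrambled arrays, with 1 point per array. The MOTS-c arrays lie below both scrambled arrays for the transporters and the hexokinases, above them for Pfkfb2 minus Pfkfb3, and overlap them for G6pc2 minus G6pc3.

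The neighbouring genes of the pathway were followed through 4 lists with 28 genes, of which 23 were tested. At an adjusted p under 0.05, limma and the methods' t-test each called 0 of the 23. At an unadjusted p under 0.05, limma had 1 higher in MOTS-c (3.03% of all probes) and 4 lower (4.82% of all probes), and the t-test 3 in either direction (6.59% of all probes). The groups did not overlap for 17 of the 23, against 38.0% of all probes. Slc5a2, in both the lower count and the count without overlap, passed the filter only through the scrambled arrays. The 23 genes had a median log2 change of −0.16, with 15 negative and 8 positive. Over all probes tested the median was 0.014, with 47.1% negative.

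Among 11 other glucose transporters, 8 were tested, with a median log2 change of −0.16 and 6 below 0 (47.1% of all probes). Slc2a13, a proton-coupled inositol transporter, read 11.19 and 11.22 under the scrambled peptide and 11.89 and 11.58 under MOTS-c, a log2 change of 0.53 (adjusted p 0.548). Slc5a2, the sodium-glucose transporter of the kidney tubule, was well above background on both scrambled arrays and on neither MOTS-c array, so it passed the filter only through the group where it is high. In the processing used here it was at least 1.66-fold lower with MOTS-c, but its log2 change was −0.22 with normexp and −0.59 without scrambled replicate 2. Slc2a3, the high-affinity neuronal transporter, read 4.45 and 4.31 against 4.02 and 3.87 through a dim probe, with a log2 change of −0.44 (adjusted p 0.563) that was −0.075 with normexp. Slc2a10, Slc2a12 and Slc5a1 were well above background on no array.

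The 3 other hexose kinases had a median log2 change of −1.01. Hkdc1, a hexokinase family member of low activity, read 8.58 and 8.59 under the scrambled peptide and 7.56 and 6.96 under MOTS-c. Both MOTS-c arrays were far lower, and the log2 change of −1.33 (SE 0.23, adjusted p 0.474) was as large as that of Slc2a2. Its probe was well above background on all 4 arrays, and its change stayed between −1.63 and −1.03 under 11 alternatives. The t-test and the trend among them reuse the main log2 change and could not move it. Hk3, the hexokinase of white blood cells, read 7.91 and 8.09 against 7.40 and 6.58, a log2 change of −1.01 (SE 0.30, adjusted p 0.553), and its second probe gave −1.09. Without MOTS-c replicate 3 the change of Hk3 was −0.60, and of 3 macrophage markers tested beside it, Cd68 had a log2 change of 0.16 and Csf1r of −0.21. The third, Cd14, was well above background on both MOTS-c arrays and on neither scrambled array. It thus passed the filter only through the group where it is high, at least 1.35-fold higher with MOTS-c in the processing used here. Adpgk, an ADP-dependent sugar kinase of the endoplasmic reticulum, gave −0.053.

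In the list of glucose 6-phosphate handling, 4 of 6 genes were tested, with a median log2 change of −0.21 and 0 at an unadjusted p under 0.05. G6pc, the liver phosphatase subunit, was well above background on 1 array and Slc37a2 on none, and neither was tested. In that of fructose 6-phosphate handling, all 8 genes were tested, with a median of 0.075, from −0.20 to 0.36, and again 0 at an unadjusted p under 0.05. A list of 10 hypoxia-induced genes was followed because Hk2, Slc2a1 and Pfkfb3 are known targets of that response. Of the list, 4 were positive and 6 negative (47.1% of all probes), with a median of −0.055. Ndrg1 alone had an unadjusted p under 0.05 by limma, with a log2 change of −0.42 (adjusted p 0.566). It was the 1 gene of the list lower in MOTS-c without overlap (18.6% of all probes). Without overlap, 4 were higher (19.4% of all probes). Slc2a1 and Pfkfb3 were negative and Hk2 positive, but the 95% confidence intervals of these 3 genes all include 0. Slc2a1 turned to 0.042 without MOTS-c replicate 3. A part of the hypoxia response in these values was not tested.

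**Figure D5:**
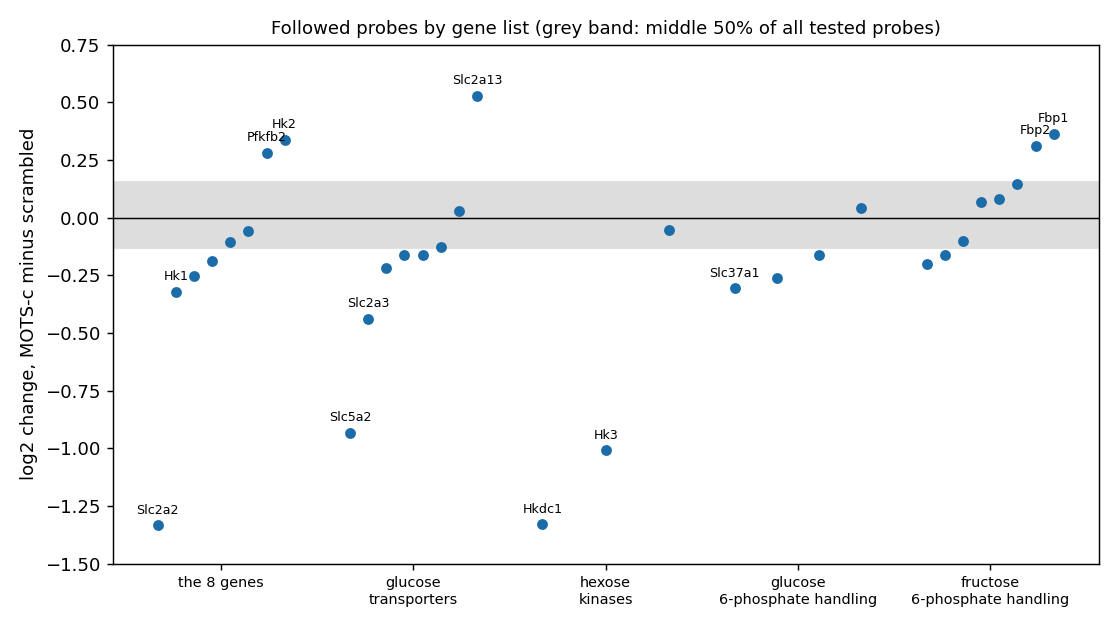
Log2 change of the brightest tested probe of each gene, MOTS-c minus scrambled, for the 8 genes and for 4 lists of neighbouring pathway genes, with the middle 50% of all tested probes (−0.13 to 0.15) as a grey band. Slc2a2, Hkdc1 and Hk3 lie lowest among probes well above background on at least 1 array of each group and Slc2a13 highest, and none passed the adjusted threshold. Slc5a2 was well above background on neither MOTS-c array, so its point has only a bound there.

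Markers of cell types are given beside these changes. With Slc2a2 and G6pc2 left out, 7 beta cell markers were tested. They summed to 98.4% and 101.6% of the scrambled mean under the scrambled peptide and to 97.5% and 99.0% under MOTS-c. The groups overlapped, and log2 changes ran from −0.16 (Ero1b) to 0.16 (Mafa). This sum was chiefly Ins2 and Ins1, very bright probes whose values quantile normalization ties to their ranks. Ins2 read 18.54 on scrambled replicate 1 and on both MOTS-c arrays. The beta cell sum could therefore hardly move and is no measure of beta cell content. The alpha cell sum was 97.0% to 103.0% in the scrambled group and 103.0% to 104.6% in the MOTS-c group, and the lowest log2 change in that list was that of Ttr, −0.27. The delta cell sum was 81.2% and 118.8% against 80.5% and 81.4%, and scrambled replicate 2 stood apart there. Sums for acinar cells (95.5% and 104.5% against 54.6% and 67.5%), ductal cells (96.1% and 103.9% against 68.7% and 70.9%) and mesenchymal cells (92.4% and 107.6% against 64.3% and 75.4%) were lower on both MOTS-c arrays. They rested on 4 of 8, 3 of 5 and 2 of 7 markers. The acinar and ductal sums were chiefly Cela1 (log2 change −0.76) and Krt8 (−0.52). The mesenchymal sum was that of Pdgfra (−1.05) and Col1a2 (−0.30, with overlapping groups). The acinar marker Ctrb1 ran the other way (0.33), and Pnlip, Prss2, Krt19, Sox9, Col1a1 and Col3a1 were well above background on no array. The endothelial sum was 88.9% and 111.1% against 87.3% and 104.9%, and the macrophage sum 77.0% and 123.0% against 76.7% and 99.3%. The latter takes in Cd14, which passed the filter only through the MOTS-c arrays. The part of these shifts in the changes of Slc2a2, Hk1, Hk3 and Hkdc1 was not tested.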

How the data were processed

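RNA of 4 samples was measured on Agilent SurePrint 1-colour arrays. The authors amplified and Cy3-labelled the RNA and read the spots with Feature Extraction (version 11.0 per the file headers). The deposited intensity of a spot was background corrected by that software, with no normalization between arrays. A value table deposited with them holds the same intensity values rounded (ratio 0.995 to 1.005).

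Groups and replicate numbers came from the labels. Control spots (3671 per array) and outlier spots (96 to 131 per array) were left out, and log2 of the deposited intensity was averaged over spots of a probe. Flag A of the methods is not defined there, so a probe was kept if 2 or more of the 4 arrays had it well above background, whatever their group, and kept probes were quantile normalized. MOTS-c was set against scrambled with limma 3.58.1 (R 4.3.3) over 35087 probes (residual degrees of freedom 2, prior 2.64), with Benjamini-Hochberg adjustment over all of them. The brightest probe of a gene was followed. Pairs were compared by exact permutation with adjustment over the 4 pairs. Symbols came from the RefSeq table of GRCm38.p6 for 32994 of 56605 probes. Probe coordinates are not given, since the design's annotation uses a different build, and the upstream sequences are RefSeq's.

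Named genes were the 8 genes with every probe, pathway genes with an unadjusted p under 0.05, a change of at least 1.5-fold or no signal above background, and the highest and lowest markers of a list. Adpgk, the hypoxia targets, Cd68, Csf1r, Cela1, Krt8, Pdgfra, Col1a2 and the markers named for presence or absence were added after their values were seen. Members and lists were chosen with earlier results of these data known. Some genes that the rule would name are not reported here.

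Alternatives were a 75th percentile shift, normexp with an offset of 50 (on median spot signals, since the files lack the mean), the authors' table, no filter, a strict filter on all 4 arrays, each array left out, limma with a trend, the methods' t-test and the mean over a gene's probes. The steps were tested on simulated data.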

Additional observations from a re-analysis of the deposited data

How the results depend on the processing

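Signals near background limit the values of Slc2a2, Slc5a2, Slc2a3 and the second Hk1 probe. Of 95 recomputed changes of the 8 genes under the alternatives, 94 kept their direction and their side of an adjusted p of 0.05. The t-test and the trend reuse the log2 change of the main analysis and could not turn its direction, so this tally is no measure of robustness. Slc2a1 turned positive without MOTS-c replicate 3, and ranged from −0.156 to 0.0424 with an array left out. Slc2a2 ran from −1.43 to −0.39, and with the mean over probes Hk1 was −0.058 and Pfkfb2 0.042. The count of these genes' probes at an adjusted p under 0.05 was 0 in each alternative. At an unadjusted p under 0.05 it went from 1 to 4 with normexp (Slc2a2, Hk1, Hk2, Pfkfb3; 8.86% of all probes), 3 without a filter (Slc2a2, Pfkfb2, Pfkfb3; 8.18%), 0 with the strict filter (7.89%), 2 with the t-test (Slc2a2, Pfkfb2; 6.59%), 2 with a trend (Slc2a2, Hk1; 8.39%), and 1 in each case with an array left out (4.57% to 13.1%). The count without overlap was 4 genes with the mean over probes (41.6% of all genes), and 9 to 12 probes with an array left out (63.9% to 75.8% of all probes).

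The shift of Slc2a2 minus Slc2a1 was −0.34 with normexp and −1.48 to −1.08 with an array left out. G6pc2 minus G6pc3 was 0.0513 without scrambled replicate 1 and 0.0088 without MOTS-c replicate 2, in a range of −0.220 to 0.0513. Pfkfb2 minus Pfkfb3 was 0.29 with the mean over probes and 0.42 to 0.64 with an array left out, and Hk1 minus Hk2 was −0.40 and −0.85 to −0.46. Of all probes, 1 had an adjusted p under 0.05 by the t-test. Those at an unadjusted p under 0.05 with 1.5-fold numbered 407 with normexp, 457 with the t-test and 611 genes with the mean over probes, and 1391 to 3299 with an array left out, the highest without MOTS-c replicate 2. The cause was not tested. No paired analysis was possible because the labels do not say which animal each array came from. The groups also share only 1 replicate number. No slide block was fitted, all arrays being on 1 slide.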
